A study of Mus musculus with 63 samples.

Results

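The TGF-beta and YAP target matricellular genes followed here are 6 by their listed symbols: *Tgfb1*, *Smad7*, *Thbs1*, *Ccn1*, *Ccn2* and *Tgfbi*. Of these, 5 had probes on the array, 8 of its 28049 probes and 5 of its 14539 genes with a symbol. *Ccn1*, *Tgfbi* and *Thbs1* had a pair of probes each, called probe 1 and probe 2 below, while *Ccn2* and *Tgfb1* had 1 probe each. All 8 probes held a value in each of the 62 samples and passed the filter on missing values in every comparison. *Smad7*, which encodes an inhibitory SMAD, was not analysed here.

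TGF-beta is secreted in a latent form, is activated outside the cell, and signals through receptor kinases and SMAD proteins that bind DNA; in normal keratinocytes it restrains proliferation. YAP is a co-activator that binds TEAD factors when cells are spread or the Hippo kinases are inactive, and *Ccn1* and *Ccn2* are among its best known targets. The matricellular proteins made from these genes sit in the matrix and bind integrins without building its scaffold, and several of them feed back on TGF-beta: thrombospondin-1, from *Thbs1*, can activate the latent cytokine.

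RefSeq (build GRCm38.p6) gave 250 bases before the start of the genes for *Ccn1*, *Tgfbi* and *Tgfb1*, and both windows below are shown because these 2 genes carried most of the calls. The window of *Ccn1* lies at chr3:145649986-145650235 on the minus strand and that of *Tgfbi* at chr13:56609336-56609585 on the plus strand, each written 5′ to 3′ towards the gene. Capitals mark the TEAD core GGAATG, here on the opposite strand as CATTCC, in *Ccn1*, and the SMAD box CAGAC, here as GTCTG, in *Tgfbi*.
Ccn1: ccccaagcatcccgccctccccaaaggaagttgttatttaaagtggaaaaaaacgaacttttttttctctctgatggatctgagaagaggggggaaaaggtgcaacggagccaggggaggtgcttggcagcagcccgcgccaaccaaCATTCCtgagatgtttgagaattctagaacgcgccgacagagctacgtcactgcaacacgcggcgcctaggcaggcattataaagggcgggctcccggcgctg
Tgfbi: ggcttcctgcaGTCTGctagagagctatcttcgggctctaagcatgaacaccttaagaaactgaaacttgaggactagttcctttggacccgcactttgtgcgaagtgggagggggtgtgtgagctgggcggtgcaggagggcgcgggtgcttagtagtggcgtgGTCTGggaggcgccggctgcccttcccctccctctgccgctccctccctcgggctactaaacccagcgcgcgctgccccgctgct
The TEAD core of *Ccn1* begins 103 bases before the start, and the SMAD boxes of *Tgfbi* begin 239 and 85 bases before it. Searched on both strands, GGAATG was found in 12.6% of 32851 windows of this length, CAGAC in 42.2%, the AP-1 site TGANTCA in 6.7% and the CArG box in 1.5%, and none of the motifs overlapped another in these windows. The *Ccn1* window held none of the other motifs, the *Tgfbi* window held none of the other motifs, and the *Tgfb1* window held none of the 4. A match describes letters in a window and was not tested as a binding site.

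The samples were keratinocytes cultured from the skin of newborn CD-1 mice that were knockout (KO) or wild type (WT) for the epidermal growth factor receptor, EGFR. The ras groups were taken 4 days after transduction with v-rasHa, an oncogenic form of Hras, by supernatant of Psi-2 virus producer cells, and the mock groups were not transduced with it. AG1478, erlotinib or PD153035, each an inhibitor of the EGFR kinase, was given at 1 µM over 2 h. KO ras cells were measured with AG1478 (n = 6), with erlotinib (n = 4), with PD153035 (n = 5) and without inhibitor (n = 5), and KO mock cells without inhibitor (n = 3). WT ras cells were measured with each inhibitor and without (n = 5 each), and WT mock cells with each inhibitor (n = 5 each) and without (n = 4). The sources used here do not say whether animals were pooled or how many gave each culture. Every array set 1 sample against one pooled mouse reference RNA, so each value below is the log2 ratio of a sample over that pool, taken to be on base 2, and levels of different probes cannot be ranked against each other.

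The arrays labelled replicates 3 and 4 of KO ras with AG1478 went against their labelled dye order, with correlations of −0.830 and 0.806 to the median of the forward arrays. Both were turned by that correlation, and each call on this group is given also with both left out. Keratinocyte markers averaged 1.78 to 5.19 in every sample, with *Krt5*, *Krt14* and *Trp63* above the reference in 62 of 62. The fibroblast list averaged −2.44 to −0.04, with *Col1a1* above the reference in 7 of 62 samples and *Col1a2* in 1. Endothelial (−3.19 to −0.17) and leukocyte (−3.16 to −0.53) lists averaged below 0 in every sample. Single genes of these cell types did not always: *Pecam1* was above the reference in 3 of 62 samples and *Ptprc* in 20. Melanocyte markers averaged 0.42 to 3.77 and were above the reference in every sample, with *Dct*, a pigment enzyme gene, at a median of 4.35 and above 0 in 62 of 62. *Egfr* itself, read by 2 probes whose place relative to the deletion is not known here, ran from 0.22 to 2.77 in KO and 0.43 to 3.60 in WT samples on one and from −0.27 to 1.71 in KO and −0.29 to 3.32 in WT samples on the other. These overlapping ranges check nothing about the labels. The labels' experiment numbers fall into 8 runs, and only KO minus WT within an inhibitor, the ras effect in WT cells without inhibitor, inhibitors in WT mock cells, erlotinib in KO ras cells and AG1478 minus PD153035 in ras cells set samples of the same run against each other, some of these with part of their samples. In all other comparisons run and group cannot be told apart.

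Across 33 comparisons, 17 of 264 tests of a member probe passed an adjusted p of 0.05 (limma, Benjamini-Hochberg over all probes tested), in 11 comparisons. *Tgfbi* probe 2 and *Ccn1* probe 1 were called 5 times each, *Ccn1* probe 2 and *Tgfbi* probe 1 3 times each, *Tgfb1* once, and *Ccn2* and *Thbs1* in none. Most calls, 4 of 8 probes, fell in erlotinib minus PD153035 in KO ras cells, where 5.82% of all probes were called. The ras effect in WT cells given erlotinib held 3 of 8 probes against 5.23% of all probes, and the same effect with AG1478 2 of 8 against 5.17%. A single member probe was called in each of 8 further comparisons. These were KO minus WT in mock cells (1.11% of all probes called), in ras cells (1.92%), in ras cells with AG1478 (2.22%) and in ras cells with PD153035 (1.38%), and among inhibitors erlotinib in WT ras cells (3.4%), the mean of the 3 inhibitors in WT ras cells (2.19%), PD153035 in KO ras cells (4.83%) and AG1478 minus PD153035 in KO ras cells (0.745%). In the remaining 22 comparisons, where 0 to 1.94% of all probes were called, no member probe passed. In them 19 tests of a member probe had an unadjusted p under 0.05 in limma, at most 3 of 8 in 1 comparison. The share of all probes with such a p ran from 1.14% to 17.7% in these comparisons. Comparisons that share a group are not independent of each other.

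*Tgfb1*, the gene of the cytokine, read highest in KO ras cells given erlotinib. Its values there were 1.17, 1.24, 1.58 and 1.69, against −0.32, −0.11, 0.00, 0.03 and 0.10 in KO ras cells given PD153035. The 2 groups were wholly apart, by 1.51 ± 0.26 on the log2 scale (SE; adjusted p = 0.000262 by limma). The erlotinib samples lie in runs 5 and 6 and the PD153035 samples in run 8, and with run as a random block the difference of 1.57 had an adjusted p of 0.0602. KO ras cells without inhibitor read 0.09, 0.24, 0.44, 0.94 and 1.52, reaching into the ranges of both. The erlotinib effect of 0.80 ± 0.26 did not pass (adjusted p = 0.194 by limma), in a comparison that called 0.0543% of all probes. It passed in 1 of 14 alternative settings. The controls at 0.44, 0.94 and 1.52 lie in run 3, which holds no erlotinib sample. Within run 5 the effect was 1.26 (3 samples against 1), and within run 6 it was 1.07 (1 against 1). PD153035 minus no inhibitor gave −0.71 ± 0.25 (adjusted p = 0.0763), and it passed in 2 of 13 alternative settings and without KO ras replicate 5 (−0.84, adjusted p = 0.0329).

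Under erlotinib the KO ras values of *Tgfb1* also lay above all 5 of WT ras cells, which read 0.16, 0.34, 0.41, 0.48 and 1.04. That difference of 0.96 ± 0.26 missed the threshold (adjusted p = 0.0534 by limma). Within run 5 it was 1.51 in KO against 0.41 in WT cells (n = 3 each), and within run 6 it was 1.17 in 1 KO sample against 0.60 in 2 WT samples. It passed in 5 of 14 alternative settings, with run as a fixed block at an adjusted p of 0.0211, and without WT ras erlotinib replicate 5 (0.0405). In mock cells KO samples read 0.61, 0.76 and 0.81 and WT samples −0.22, 0.01, 0.32 and 0.60, apart by 0.48 ± 0.30 without passing (adjusted p = 0.397).

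*Thbs1* encodes thrombospondin-1, a secreted glycoprotein that binds CD47 and CD36 and can free TGF-beta from its latent complex. Probe 2 lay above the reference pool in all 62 samples and probe 1 in all but KO mock replicate 2, with group means from 1.70 to 4.12 on probe 1 and 2.38 to 3.79 on probe 2. The lowest mean of probe 1 was that of KO mock cells, at −0.09, 1.96 and 3.23, against 3.64, 3.82, 4.25 and 4.75 in WT mock cells. The groups did not overlap, but the difference of −2.37 ± 0.70 missed the threshold (adjusted p = 0.0677 by limma). Probe 2 read 1.14, 3.56 and 4.32 in KO mock cells and 2.42, 3.72, 4.14 and 4.66 in WT mock cells, which overlap, at −0.74 ± 0.76 (adjusted p = 0.638). The lowest of these 7 samples on both probes was KO mock replicate 2. Probe 1 passed when reversed arrays were left out (−2.46, adjusted p = 0.029), and also with the repeat 1 arrays kept apart (0.0417), with quantile normalization (0.0163) and with array weights (0.0022).

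In WT ras cells given erlotinib *Thbs1* differed between runs. Probe 1 read 1.13, 1.26 and 2.17 in run 5 and 4.11 and 4.65 in run 6, while probe 2 read 0.44, 1.32 and 2.47 in run 5 and 3.71 and 3.95 in run 6. The run 5 samples were thus all below the run 6 samples of the same group. WT ras cells without inhibitor, in runs 1 and 2, read 2.21 to 4.36 on probe 1, and erlotinib minus no inhibitor came to −1.03 ± 0.58 on probe 1 and −1.22 ± 0.63 on probe 2 (adjusted p = 0.347 and 0.293). In KO ras cells the 3 inhibitors gave 0.47 to 0.66 on probe 1 and 0.39 to 0.88 on probe 2, all above 0 and none called. The test of the difference in the mean response of KO and WT ras cells gave 1.25 ± 0.67 and 1.24 ± 0.72 for the 2 probes (adjusted p = 0.387 and 0.436), in a comparison where 0.186% of all probes were called.

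*Ccn1*, once named Cyr61, encodes a cysteine-rich matrix protein that is induced within minutes by serum and growth factors as well as by YAP. Probe 1 was lower in KO than in WT cells without inhibitor, in mock and in ras cells alike. In mock cells probe 1 read −0.48, 1.17 and 1.27 in KO samples and 2.21, 2.23, 2.75 and 2.77 in WT samples, and probe 2 read 1.40, 1.60 and 2.05 in KO samples and 3.04, 3.36, 3.39 and 4.01 in WT samples. Every KO sample was below every WT sample on both probes. The difference was −1.85 ± 0.49 on probe 1, which passed (adjusted p = 0.0416 by limma), and −1.82 ± 0.53 on probe 2, which did not (adjusted p = 0.0637). The probe 1 call was lost without any 1 of the 7 samples, with differences of −2.16 to −1.28 and adjusted p up to 0.2 without KO mock replicate 2, and it was lost in 4 of 13 alternative settings: run as a random block (adjusted p = 0.418), only the groups compared (0.218), signs by label (0.101) and a replicate block (0.0637). Probe 2 passed in 3 of the 13. Marker lists moved with this comparison: the keratinocyte list averaged 3.39 to 5.19 in KO and 2.78 to 3.96 in WT mock samples, with 4 of 18 genes called higher, led by *Krt15* (3.13), *Krt14* (3.09) and *Sprr1a* (2.65), and the fibroblast list −0.42 to −0.17 in KO and −1.22 to −0.86 in WT, with none of 18 called. Melanocyte, endothelial and leukocyte lists also had medians above 0, of 0.96, 1.07 and 0.95, with none called. Their part in the *Ccn1* difference was not tested, and in bulk samples fewer cells of a type and less RNA per cell cannot be told apart.

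In ras cells without inhibitor probe 1 of *Ccn1* read 0.03, 0.64, 1.29, 1.40 and 2.30 in KO samples and 2.27, 2.30, 2.56, 2.66 and 3.11 in WT samples. Only KO ras replicate 1 reached the WT range. The difference of −1.44 ± 0.40 passed on probe 1 (adjusted p = 0.0436 by limma), while probe 2 gave −0.95 ± 0.43 (adjusted p = 0.247). The call was lost in 8 of 10 fits that left out a sample (−1.73 to −1.16), with an adjusted p of 0.141 without WT ras replicate 5. It was also lost in 7 of 13 alternative settings: run as a random block (adjusted p = 0.306), only the groups compared (0.285), signs by label (0.0983), forward arrays alone (0.0904), array weights (0.0897), quantile normalization (0.0749) and no dye term (0.0526). No marker gene was called in this comparison. Within KO ras cells probe 2 split by run, at 2.88, 2.99 and 3.09 in run 3, 1.45 in run 5 and 0.91 in run 6. The ras effect on *Ccn1* was not called. It was 0.10 ± 0.43 on probe 1 in WT cells (95% interval −0.76 to 0.95), where 0.183% of all probes were called, and 0.50 ± 0.47 in KO cells, where 0.539% were.

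**Figure D1:**
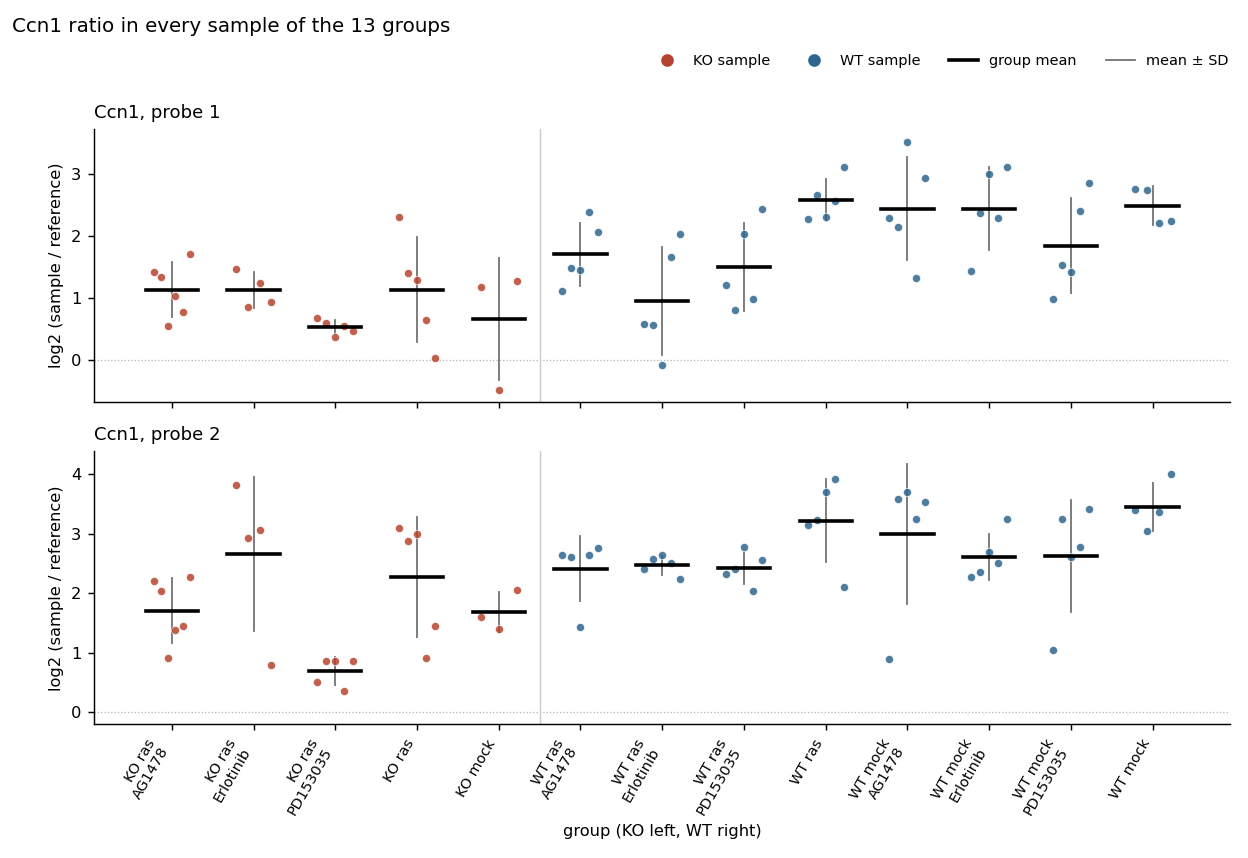
Log2 ratio of sample over reference for both *Ccn1* probes in every sample, by group, KO groups left and WT groups right. Points are samples, black bars group means and grey lines ± SD. On probe 1 the 5 samples of KO ras with PD153035 lie between 0.37 and 0.67, and WT ras without inhibitor lies between 2.27 and 3.11.

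In WT ras cells *Ccn1* probe 1 was lower with erlotinib and in the mean over the 3 inhibitors. Erlotinib samples read −0.09, 0.56, 0.57, 1.66 and 2.02, all below the lowest of the WT ras samples without inhibitor, at 2.27. The difference was −1.63 ± 0.40 (adjusted p = 0.0157 by limma), and the mean over the 3 inhibitors was −1.20 ± 0.33 (adjusted p = 0.0364). AG1478 gave −0.88 ± 0.40 and PD153035 −1.09 ± 0.40, and neither passed (adjusted p = 0.246 and 0.217), in comparisons that called 1.94% and 0.66% of all probes. On probe 2 the 3 inhibitors gave −0.75 to −0.81, none called. No inhibited WT ras sample shares a run with the controls, and with run as a random block the erlotinib difference was −1.37 (adjusted p = 0.284) and the mean −1.10 (adjusted p = 0.405). Both calls were lost as well with only the groups compared (0.14 and 0.0998), and that on the mean with signs by label (0.0829). With erlotinib the fibroblast marker *Col6a2* (1.65) and the melanocyte marker *Mitf* (0.92) were called higher, on lists of 18 and 8 genes. The fibroblast list had a median of −1.12 with erlotinib and −1.48 without inhibitor, and the melanocyte list 1.67 and 1.74. The part of these markers was not tested. Leaving out WT ras replicate 5, WT ras erlotinib replicate 3 or replicate 1 ended the erlotinib call, with adjusted p of 0.0591, 0.0912 and 0.0506, and the call on the mean was lost in 8 of 20 such fits, at 0.165 without WT ras replicate 5. In WT mock cells, where none of the inhibitors moved any probe past the threshold (0% called, while 885 to 1800 probes had an unadjusted p under 0.05 in limma), *Ccn1* probe 1 differed by −0.04, −0.04 and −0.64 with AG1478, erlotinib and PD153035.

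In KO ras cells *Ccn1* probe 2 was lowest with PD153035. Its 5 samples read 0.36, 0.51, 0.85, 0.86 and 0.86, against 0.91, 1.45, 2.88, 2.99 and 3.09 without inhibitor. The PD153035 samples were all below the controls, at −1.58 ± 0.43 (adjusted p = 0.0256 by limma). These controls lie in runs 3, 5 and 6 and the treated samples in run 8, and with run as a random block the call was lost (−1.32, adjusted p = 0.549), as it was with signs by label (0.0829) and with only the groups compared (0.0531). It was also lost in 6 of 10 fits that left out a sample, with the adjusted p reaching 0.0936 without KO ras replicate 1. WT ras cells given PD153035 in the same run read 2.04, 2.32, 2.41, 2.56 and 2.77, above every KO sample. This genotype difference of −1.73 ± 0.43 passed (adjusted p = 0.0232), and probe 1 gave −0.96 ± 0.40 (adjusted p = 0.319) with ranges also apart. Leaving out WT ras PD153035 replicates 3 or 5 or KO ras PD153035 replicates 1 or 3 ended the call (adjusted p from 0.0537 to 0.07), and so did signs by label (0.116). Under AG1478 the KO minus WT difference of *Ccn1* was −0.57 and −0.72 on the 2 probes, and under erlotinib 0.19 and 0.20. None of them was called, in a comparison under erlotinib that called 0.945% of all probes. Within run 5 the erlotinib differences were 0.84 and 0.73 (n = 3 each). Within run 6 they had the opposite sign, −0.90 and −1.57, in 1 KO and 2 WT samples.

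*Ccn2*, once named Ctgf, encodes connective tissue growth factor, a classic target of both TGF-beta and YAP. It was called in no comparison, and its spread within a group was wide. KO ras cells without inhibitor read 1.49, 1.67 and 1.84 in run 3, and −0.57 in run 6 and −1.82 in run 5. The 3 samples of run 3 were thus far above the other 2 of the same group. Erlotinib minus no inhibitor in KO ras cells was 0.32 ± 0.51 over all samples (adjusted p = 0.851 by limma) but 2.11 with run as a fixed block (adjusted p = 0.043), which rests on KO ras replicates 4 and 5 alone. With quantile normalization the same difference turned to −0.08, with array weights to −0.55, and without KO ras replicate 5 to −0.27.

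Within run 8 *Ccn2* separated PD153035 in KO ras cells from its neighbours. Those samples read −0.81, −0.59, −0.40, −0.37 and 0.01. WT ras cells with PD153035 read 0.64, 0.65, 0.72, 0.82 and 1.22, and KO ras cells with AG1478 0.52 at the lowest, 0.98 at the median and 1.47 at the highest. Both neighbours were wholly above. KO minus WT with PD153035 was −1.24 ± 0.48 (adjusted p = 0.251 by limma), and AG1478 minus PD153035 in KO ras cells was 1.43 ± 0.46 (adjusted p = 0.149), so neither passed. With run as a fixed block they did, at adjusted p of 0.0222 and 0.00637, and they passed in 3 and 4 of 14 alternative settings in all. As all these samples lie in run 8, the block corrects no run difference between them, and the differences stayed at −1.24 and 1.43.

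**Figure D2:**
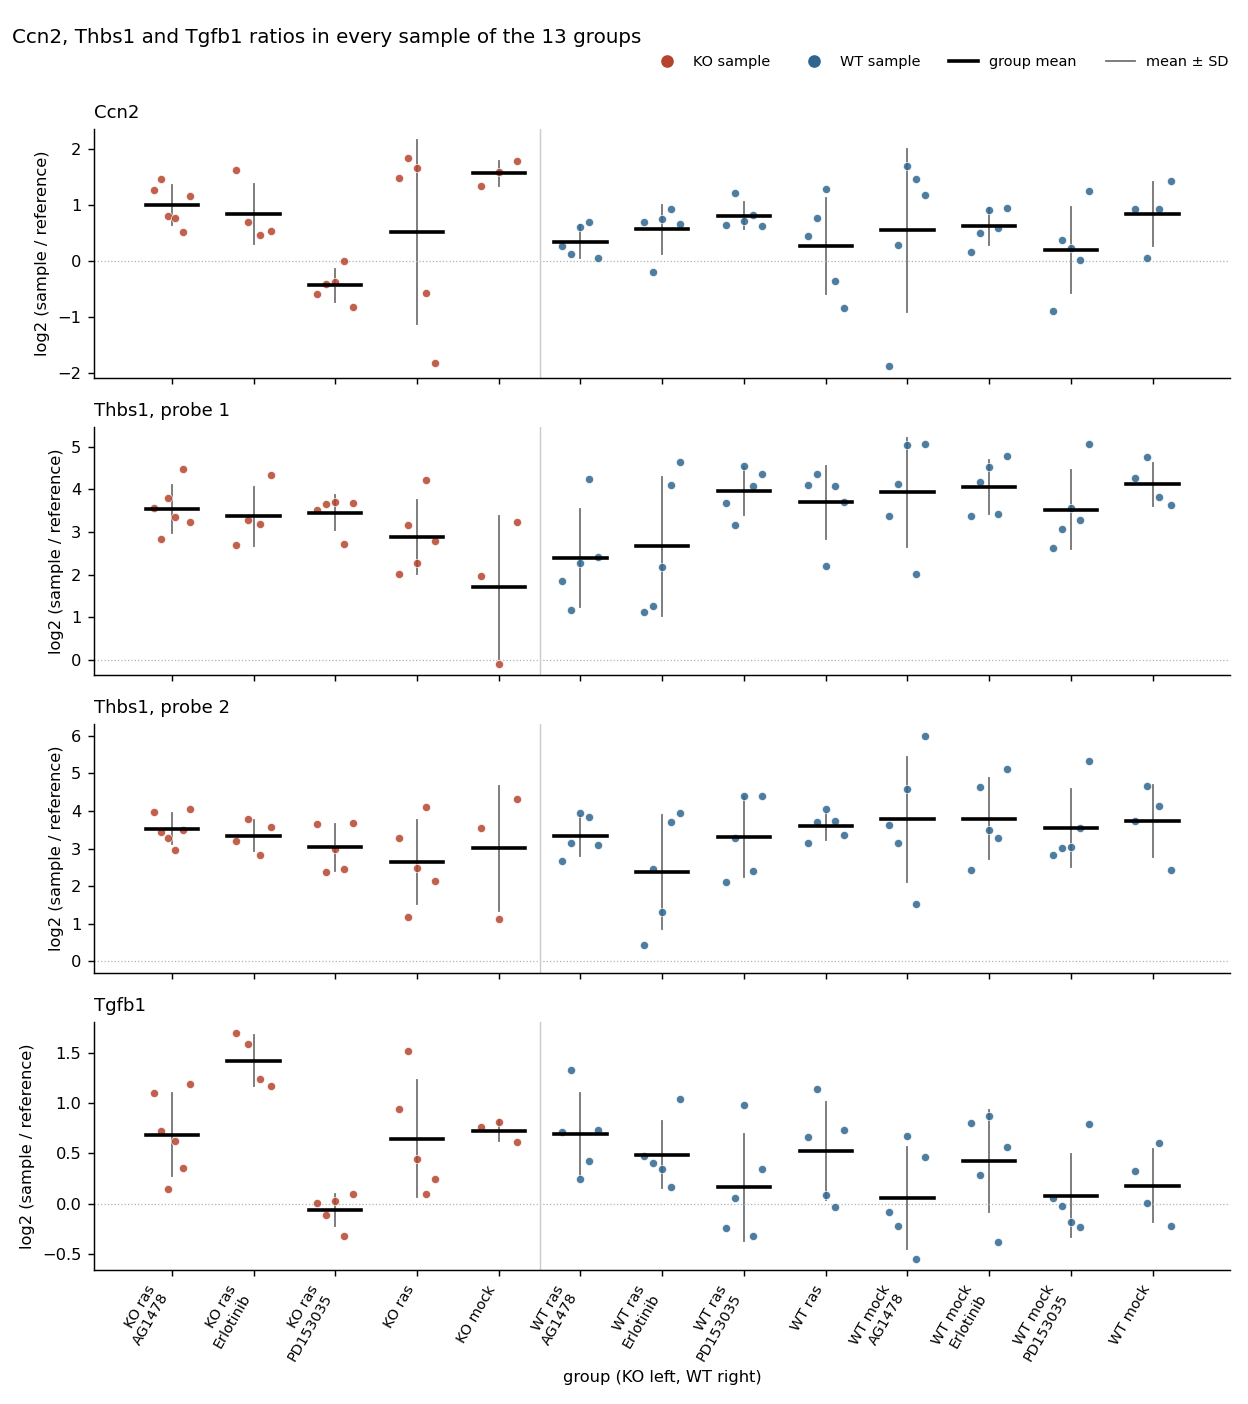
Log2 ratio of sample over reference for *Ccn2*, both *Thbs1* probes and *Tgfb1* in every sample, by group, KO groups left and WT groups right. Points are samples, black bars group means and grey lines ± SD. *Ccn2* in KO ras cells runs from −1.82 to 1.84, and *Tgfb1* with erlotinib in KO ras cells from 1.17 to 1.69.

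*Tgfbi* encodes the matrix protein also called keratoepithelin, which is induced by TGF-beta and binds collagens and integrins. Its ras minus mock differences were all below 0 and passed in WT cells given AG1478 or erlotinib. Without inhibitor, probe 1 read 0.91, 1.15, 1.24, 1.95 and 2.49 in KO ras and 3.86, 3.96 and 5.34 in KO mock samples, and −0.59, −0.28, 0.59, 1.63 and 2.47 in WT ras and −0.45, 1.63, 3.16 and 3.64 in WT mock samples. The KO groups were wholly apart and the WT groups overlapped. The ras effect was −2.66 ± 0.69 in KO cells (adjusted p = 0.0545 by limma) and −1.17 ± 0.63 in WT cells (adjusted p = 0.779), and on probe 2 it was −2.24 ± 0.64 and −1.84 ± 0.58 (adjusted p = 0.107 and 0.422). Without KO ras replicate 4 both probes passed in KO cells (−3.07 and −2.55, adjusted p = 0.0128 and 0.0401), and so did probe 2 without KO mock replicate 2 (−3.25, adjusted p = 0.00387). Probe 1 passed in 4 and probe 2 in 3 of 13 alternative settings. In the same comparison, which called 0.539% of all probes, the fibroblast markers *Col1a2* (−2.69) and *Col6a1* (−2.01) and the keratinocyte marker *Krt15* (−2.94) were called lower, and their part was not tested. The ras effect differed between KO and WT cells by −1.49 ± 0.93 on probe 1 (adjusted p = 0.874), in a comparison that called 0.0108% of all probes. Set by genotype, the same KO mock values of probe 1 lay above all WT mock values, at 2.28 ± 0.72 without passing (adjusted p = 0.0861), and passed with quantile normalization (adjusted p = 0.0397) and with array weights (0.0013). Probe 2 read 1.35, 4.07 and 4.69 in KO mock and 0.69 to 3.50 in WT mock samples, which overlap. Its difference of 1.06 did not pass (adjusted p = 0.4 by limma) and ran from 0.40 to 2.07 over fits without 1 sample. It passed with array weights alone (adjusted p = 0.0318).

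Among WT cells given an inhibitor the ras effect on *Tgfbi* was called. With AG1478 probe 2 read −1.19, −0.52, −0.51, −0.44 and −0.07 in WT ras and 1.10, 1.64, 2.68, 2.89 and 3.49 in WT mock samples, wholly apart. The differences were −2.90 ± 0.55 on probe 2 and −2.27 ± 0.59 on probe 1 (adjusted p = 0.000539 and 0.0158 by limma). With erlotinib probe 2 read −0.40, −0.06, 0.27, 0.80 and 1.11 in WT ras and 1.04, 2.99, 3.10, 3.38 and 3.56 in WT mock samples. Only WT mock erlotinib replicate 4 fell within the ras range, and the differences were −2.47 ± 0.55 on probe 2 and −2.21 ± 0.59 on probe 1 (adjusted p = 0.00357 and 0.0186). Both probe 2 calls held in all 13 alternative settings and all 10 fits without 1 sample. On probe 1 the AG1478 call was lost in 4 of the 13 settings: only the groups compared (adjusted p = 0.154), run as a random block (0.083), signs by label (0.0567) and array weights (0.0523). It was lost too without WT mock AG1478 replicate 1 or 5 (0.103 and 0.051). The erlotinib call on probe 1 was lost in 2 settings, run as a random block (0.0764) and signs by label (0.0653), and without WT mock erlotinib replicate 2 or 5 or WT ras erlotinib replicate 1 (up to 0.0602). With PD153035 the ras effect was −1.42 ± 0.59 and −1.54 ± 0.55 (adjusted p = 0.302 and 0.188), where 1.19% of all probes were called. No WT ras sample with an inhibitor shares a run with its mock group. With AG1478 the fibroblast list averaged −2.09 to −0.08 in WT ras (median −1.13) and −1.92 to −0.04 in WT mock samples (median −0.42), with *Col5a1* (−1.14) and *Pdgfrb* (−1.09) of its 18 genes called lower, and the macrophage marker *Cd68* was higher (0.89). With erlotinib no keratinocyte, fibroblast or melanocyte marker was called, while *Cd68* (1.18) and the endothelial marker *Cldn5* (3.26) were higher. The part of these markers in the *Tgfbi* differences was not tested. In the same comparison with erlotinib *Ccn1* probe 1 was also called, at −1.50 ± 0.40 (adjusted p = 0.018), but not with run as a random block (0.272), with only the groups compared (0.12), or without WT ras erlotinib replicate 1 or 3 or WT mock erlotinib replicate 3 or 5 (adjusted p up to 0.0959).

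**Figure D3:**
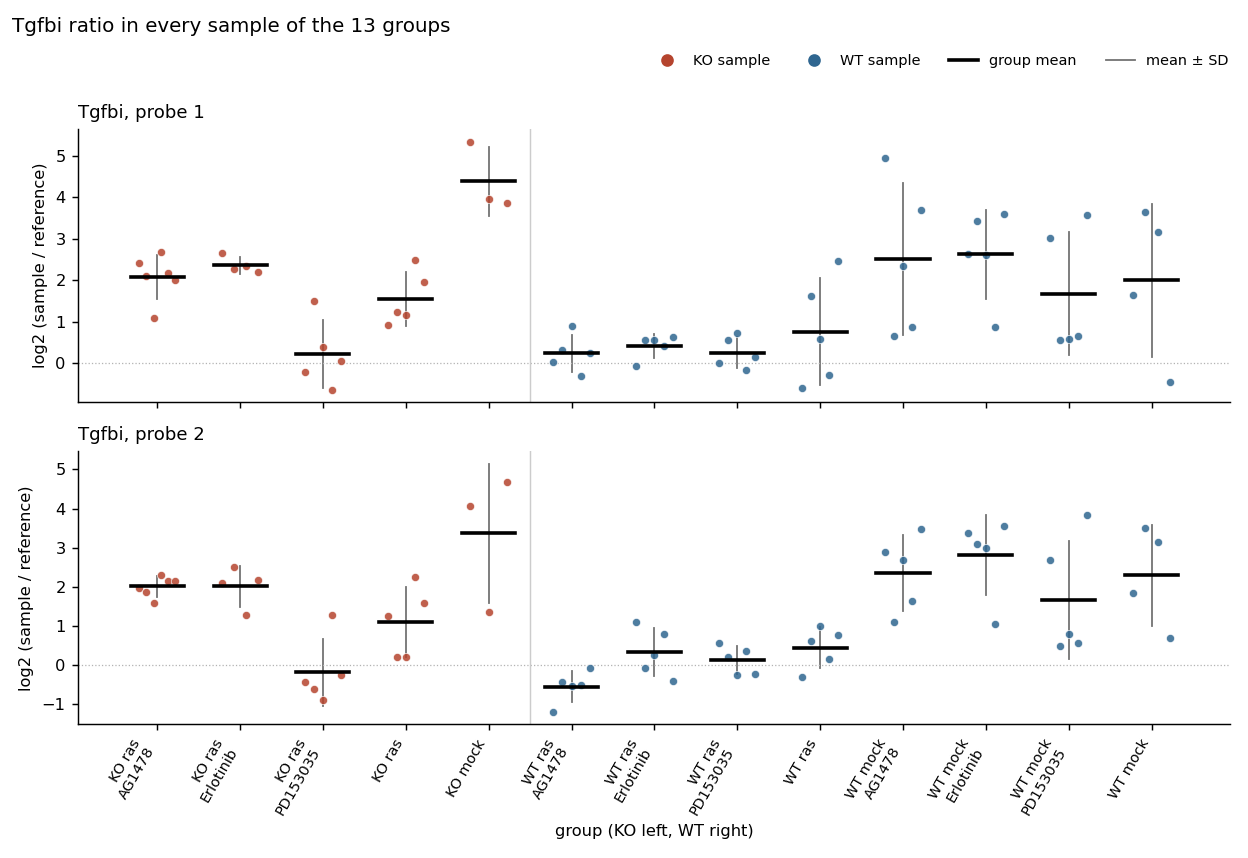
Log2 ratio of sample over reference for both *Tgfbi* probes in every sample, by group, KO groups left and WT groups right. Points are samples, black bars group means and grey lines ± SD. On probe 2, KO ras samples with AG1478 lie between 1.59 and 2.31, above all WT ras samples with AG1478, which lie between −1.19 and −0.07.

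*Tgfbi* probe 2 was higher in KO than in WT ras cells given AG1478. The 6 KO samples had 1.59 as lowest, 2.06 as median and 2.31 as highest value, against −1.19 to −0.07 in the 5 WT samples. The difference of 2.55 ± 0.53 passed (adjusted p = 0.0035 by limma) and probe 1 gave 1.81 ± 0.57 (adjusted p = 0.0749), both with ranges apart. Within run 8 probe 2 averaged 2.01 in the 6 KO samples and −0.52 in 2 WT samples. The probe 2 call held in all 11 fits without 1 sample and in 13 of 14 alternatives, both disputed arrays left out included, and was lost when those arrays took the sign of their label (1.24, adjusted p = 0.253). Of the marker genes *Cd68* alone was called, lower in KO cells (−1.66), and its part was not tested. With erlotinib KO samples read 2.19, 2.27, 2.34 and 2.65 on probe 1, against −0.08, 0.41, 0.55, 0.56 and 0.64 in WT samples, apart by 1.99 ± 0.63 without passing (adjusted p = 0.103) but passing in 4 of 14 alternative settings, run as a fixed block among them (2.14, adjusted p = 0.0225). Probe 2 with erlotinib was also apart, at 1.28 to 2.50 in KO and −0.40 to 1.11 in WT samples. Its difference of 1.68 did not pass (adjusted p = 0.138 by limma), and it passed in 1 of 14 alternative settings. With PD153035 the genotypes overlapped on both probes. Probe 1 read −0.64, −0.22, 0.06, 0.40 and 1.50 in KO and −0.16, 0.01, 0.14, 0.55 and 0.72 in WT samples, a difference of −0.03 with a 95% interval of −1.23 to 1.16. Probe 2 ran from −0.89 to 1.27 in KO and from −0.24 to 0.56 in WT samples, and the group means differed by −0.32. PD153035 minus no inhibitor in KO ras cells gave −1.33 ± 0.59 and −1.29 ± 0.55 for the 2 probes, neither called (adjusted p = 0.171 and 0.147).

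**Figure D4:**
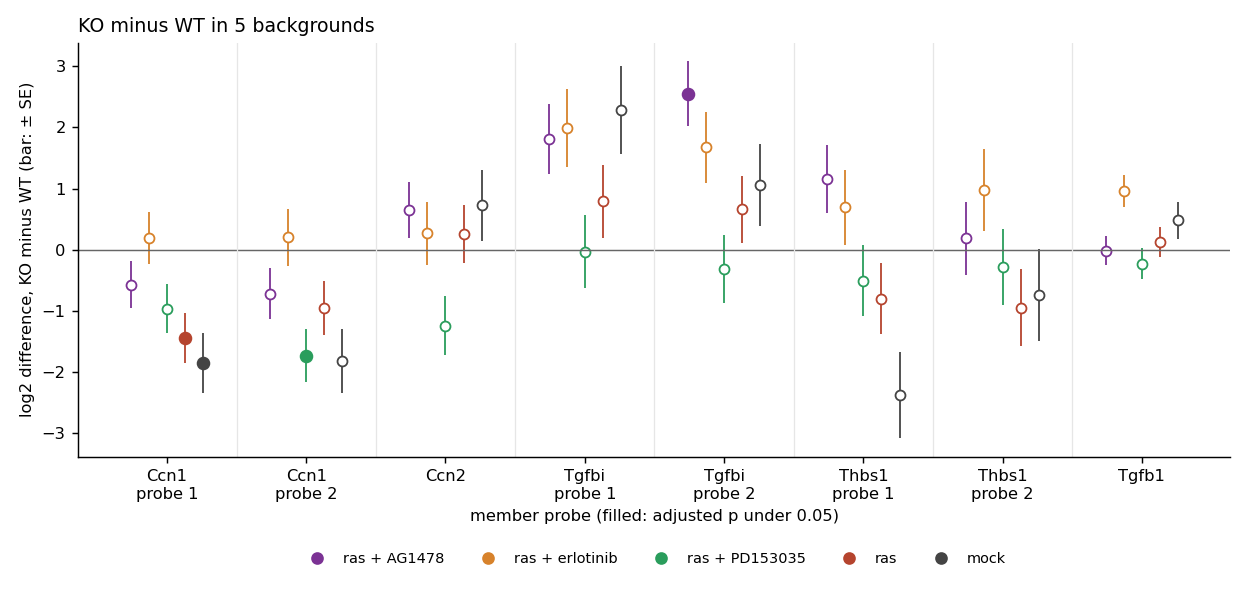
Log2 difference of KO minus WT for the 8 member probes in ras cells with each inhibitor, in ras cells and in mock cells, with bars of ± SE. Filled points had an adjusted p under 0.05. The filled points are *Ccn1* probe 1 in ras (−1.44) and mock cells (−1.85), *Ccn1* probe 2 with PD153035 (−1.73) and *Tgfbi* probe 2 with AG1478 (2.55).

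The 3 compounds were compared with each other at the matched dose and time in 9 pairs, and 7 pairs called no member probe. The exceptions were both in KO ras cells and both involved PD153035. Erlotinib minus PD153035 gave 2.19 ± 0.63 and 2.20 ± 0.58 for the *Tgfbi* probes (adjusted p = 0.0284 and 0.016 by limma) and 1.98 ± 0.46 for *Ccn1* probe 2 (adjusted p = 0.00582), beside the *Tgfb1* difference above. On probe 1 of *Tgfbi* all 4 erlotinib samples, from 2.19 to 2.65, exceeded all 5 PD153035 samples. *Ccn1* probe 2 read 0.80, 2.93, 3.07 and 3.82 with erlotinib, so that replicate 4 lay within the PD153035 range, and the call was lost without replicate 1 (1.62, adjusted p = 0.0508). The *Tgfbi* calls were lost without 7 of 9 samples on probe 1 and without erlotinib replicate 2 or PD153035 replicate 3 on probe 2 (adjusted p = 0.0603 and 0.0507). All 4 calls were lost with run as a random block (adjusted p from 0.0602 to 0.419). With quantile normalization the *Ccn1* (0.0696) and both *Tgfbi* calls (0.106 and 0.0733) were lost, with signs by label both *Tgfbi* calls (0.081 and 0.0684), and with forward arrays alone or no dye term that of *Tgfbi* probe 1 (0.0894 and 0.0504).

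Markers of several cell types moved with erlotinib minus PD153035 in KO ras cells. The melanocyte list averaged 2.51 to 2.81 with erlotinib and 1.28 to 1.78 with PD153035, wholly apart, with the differences of all 8 genes above 0 and *Sox10* called (1.61). The keratinocyte list averaged 3.58 to 4.66 with erlotinib and 2.35 to 4.37 with PD153035, with 3 of 18 genes called higher, *Trp63* (3.10), *Lamb3* (2.09) and *Cdh1* (1.39). The fibroblast list averaged −1.52 to −1.10 with erlotinib and −1.65 to −0.94 with PD153035, with *Thy1* called lower (−1.55), and *Cd3g*, a T cell gene, was lower as well (−2.36). The part of these markers in the members' differences was not tested.

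AG1478 minus PD153035, both in run 8, gave 2.19 ± 0.53 for *Tgfbi* probe 2 in KO ras cells (adjusted p = 0.0271 by limma). PD153035 samples read −0.89, −0.61, −0.44, −0.26 and 1.27, all below the AG1478 minimum of 1.59. With both disputed arrays left out the difference was 2.21 (adjusted p = 0.0617), and by label it was 0.88 (adjusted p = 0.408). It was also lost with a replicate block (0.0741) and without AG1478 replicates 1, 2 or 6 or PD153035 replicates 1, 2, 3 or 5 (adjusted p from 0.0527 to 0.12). AG1478 minus erlotinib in KO ras cells gave −0.01 for *Tgfbi* probe 2, with a 95% interval of −1.14 to 1.11, and called 0.243% of all probes. In WT ras cells AG1478 minus erlotinib called 0.897% of all probes, AG1478 minus PD153035 1.29% and erlotinib minus PD153035 0.176%, and the members' differences ran from −1.57, for *Thbs1* probe 1 with AG1478 minus PD153035 (95% interval −2.73 to −0.41, adjusted p = 0.137), to 0.96, for *Thbs1* probe 2 with AG1478 minus erlotinib (−0.29 to 2.22). A test that misses the threshold does not show that the compounds act alike.

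**Figure D5:**
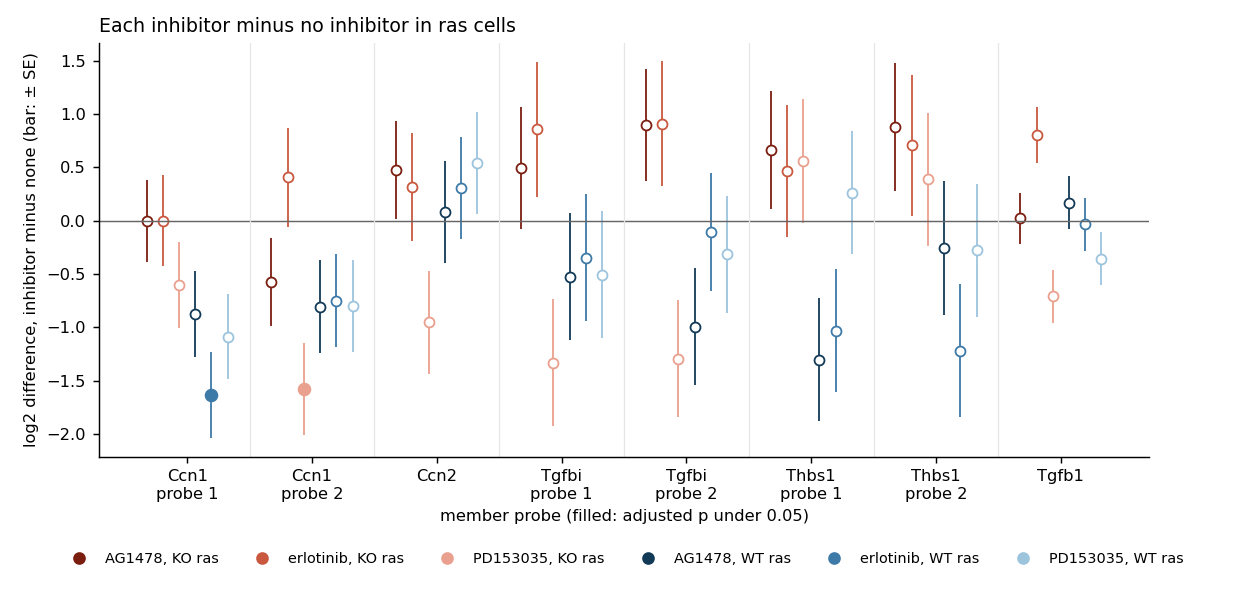
Log2 difference of each inhibitor minus no inhibitor for the 8 member probes in KO ras and WT ras cells, with bars of ± SE. Filled points had an adjusted p under 0.05. The 2 filled points are *Ccn1* probe 1 with erlotinib in WT ras cells (−1.63) and *Ccn1* probe 2 with PD153035 in KO ras cells (−1.58).

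Other genes of the pathways are given by list, counting measured genes with 1 probe per gene. In KO minus WT mock cells, where 1.11% of all probes were called, none of 12 ligand and activation genes and none of 12 receptor and SMAD genes was called, and of 10 TGF-beta inhibitors *Smurf1*, a ubiquitin ligase for receptors and SMADs, was lower (−1.46). Of 17 TGF-beta targets none was called (median 0.24, against 0.10 over all 14490 genes), of 21 YAP targets *Ccn1* alone was, and none of 15 Hippo kinases and YAP partners or of 13 other matricellular genes. Among 12 targets of SRF and its co-activator MRTF *Tpm4* was lower (−1.56), among 14 immediate early genes *Egr1* was lower (−2.39), and among 12 receptors of matricellular proteins *Itgb5*, an integrin chain, was higher (1.04). In KO minus WT ras cells (1.92% of all probes called) *Smurf1* (−1.10) and *Itgb5* (0.83) were called in the same directions, with *Egr1* (−3.30), *Fos* (−2.45) and *Dusp1* (−1.75) lower among immediate early genes. With AG1478 (2.22%) KO minus WT called *Plaur*, the urokinase receptor (−1.75), lower, and *Mob1a*, a Hippo kinase adaptor (1.08), and *Itga6* (1.17, but −0.261 with signs by label) higher. With both disputed arrays left out the *Plaur* and *Mob1a* calls were lost. With erlotinib (0.945%) it called *Itgb8* (−2.44) lower and *Itga6* (1.46) and *Vgll4* (1.23) higher, beside the keratinocyte marker *Trp63* (3.22). With PD153035 (1.38%) it called *Igfbp3* (−2.21) lower and *Gadd45a* (1.31) higher, both on the YAP target list.

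Erlotinib in WT ras cells, where 3.4% of all probes were called, called 1 of 12 ligand and activation genes, *Itgb8* (2.00), whose integrin activates latent TGF-beta, and 1 of 12 receptors and SMADs, *Smad3* (1.31). *Smad6*, an inhibitory SMAD, was higher (2.04), as were the receptors *Lrp1* (1.13) and *Itgb5* (1.12), and none of 17 TGF-beta targets was called. *Egr1* (−2.78), *Klf6* (−1.43) and *Tpm4* (−1.30) were lower, as was *Ccn1*, the one YAP target called. The mean of the 3 inhibitors (2.19%) called *Smad6* (1.81), *Smad3* (0.96), *Lrp1* (0.85) and *Itgb5* (0.72) higher and *Egr1* (−2.73), *Fos* (−1.97), *Klf6* (−1.28) and *Tpm4* (−1.14) lower.

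The ras effect in WT cells given AG1478, with 5.17% of all probes called, called 4 of 17 TGF-beta targets: 3 were lower, led by *Tgfbi* and *Col7a1* (−2.07), the anchoring fibril collagen, and *Plaur* (1.97) was higher. Its median over the 17 was −0.40, against 0.11 over all genes. The receptor *Tgfbr3* (1.55), the YAP target *Nuak2* (1.14), *Actb* (1.18) and *Itga3* (1.34) were higher, and the co-repressor *Tgif1* (−1.25) and *Mob1a* (−1.50) lower. Of 14 immediate early genes 4 were called, led by *Egr1* (−2.53) and *Klf6* (−1.77), lower, and *Junb* (1.52), higher. With erlotinib, at 5.23% of all probes, the same effect called *Col7a1* (−2.45) and *Tgfbi* among the 17, with a list median of −0.14 against 0.14 over all genes. Of 21 YAP targets it called *Ccn1* lower and *Igfbp3* (1.47) and *Ankrd1* (1.26) higher, with a list median of 0.10. *Thbs4* (1.82), *Itgb8* (1.75), *Itga3* (1.50), *Egr3* (1.42), *Smad3* (1.37) and *Actb* (1.22) were also higher, and *Egr1* (−2.73), *Klf6* (−1.34) and *Tpm4* (−1.13) lower.

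PD153035 in KO ras cells, where 4.83% of all probes were called, called list genes in both directions. The largest change among the list genes called was that of *Ccn4* (2.47), a CCN family member, which was higher, as were *Ski* (1.50), a SMAD co-repressor, *Amot* (1.39), which binds YAP, and *Gadd45a* (1.02), 1 of 2 YAP targets called. The other, *Igfbp3*, was lower (−1.40), and so was *Itgb6* (−1.46) among ligand and activation genes. Of 17 TGF-beta targets 2 were called, both integrin chains and both lower, *Itgb1* (−1.67) and *Itga5* (−1.19). Of 12 SRF and MRTF targets 4 were called, all lower, led by *Cnn2* (−1.29), *Tpm2* (−1.28) and *Vcl* (−1.18), whose products sit on actin filaments or at their adhesion sites. Medians were −0.56 for the TGF-beta targets, −0.94 for the SRF and MRTF targets and −0.16 for the YAP targets, against −0.02 over all genes. Markers moved with this comparison too. The keratinocyte list averaged 2.35 to 4.37 with PD153035 and 3.62 to 4.44 without inhibitor, with *Sfn* (−2.45) and *Trp63* (−2.40) of 18 genes called lower, and all 8 melanocyte markers had differences below 0 with none called. *S100a4* (−1.91) on the fibroblast list and *Emcn* (−1.53) on the endothelial list were lower, and *Cd3g* (1.78) was higher. The leukocyte list, which holds *Cd3g*, had a lower median with PD153035 (−1.98) than without inhibitor (−1.34). The part of these markers in the members' values was not tested.

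Erlotinib minus PD153035 in KO ras cells, at 5.82% of all probes, called 3 of 17 TGF-beta targets higher, *Tgfbi*, *Itgb1* (2.13) and *Itga5* (1.48), and 3 of 12 ligand and activation genes higher, *Tgfb1*, *Itgb6* (1.95) and *Inhbb* (1.63). Of 14 immediate early genes 5 were called higher, led by *Fosl1* (2.53), *Fos* (2.39) and *Junb* (1.81), and of 12 SRF and MRTF targets 4, led by *Fhl2* (1.75), *Vcl* (1.49) and *Zyx* (1.37). Of 21 YAP targets *F3* (2.23), which encodes tissue factor, and *Igfbp3* (1.93) were higher. *Thbs2* (2.35), *Itga6* (1.80), *Itga3* (1.54), *Vgll4* (1.08) and *Nf2* (1.02) were higher too, while *Lats1* (−1.78), a Hippo kinase, and *Ski* (−1.34) were lower. AG1478 minus PD153035 in KO ras cells (0.745% of all probes called) called *Itgb1* (1.24), *Igfbp3* (1.91), *Rbms3* (1.48), *Tpm2* (1.41) and *Vcl* (1.03) higher and *Gadd45a* (−1.73) lower, of which only *Rbms3* was lost with both disputed arrays left out. Over 13 comparisons, counting at most 3 genes of a list and marker lists included, 83 of 118 calls of list genes outside the members were lost in at least 1 fit without 1 sample, while none of the 6 *Egr1* calls among them was.

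Ordered by group mean, *Ccn1* probe 1 ran from 2.58 in WT ras to 0.53 in KO ras cells with PD153035, *Ccn2* from 1.57 in KO mock to −0.43 in KO ras cells with PD153035, and *Tgfb1* from 1.42 in KO ras cells with erlotinib to −0.06 in KO ras cells with PD153035. *Tgfbi* probe 1 ran from 4.38 in KO mock to 0.22 in KO ras cells with PD153035, and *Thbs1* probe 1 from 4.12 in WT mock to 1.70 in KO mock cells. Thus 4 of the 5 genes had their lowest mean on probe 1 in KO ras cells given PD153035. The share of all genes with their lowest mean in that group was not counted. For *Tgfbi* probe 1 the mean of WT ras cells with AG1478 was close, at 0.24. *Tgfbi* probe 2 was lowest in WT ras cells with AG1478 (−0.55), against −0.19 in KO ras cells with PD153035. Of 96 pairs of groups next to each other in these orders, 93 had overlapping ranges. The 3 that did not were *Ccn1* probe 2 in KO mock above KO ras with PD153035, *Tgfb1* in KO ras with erlotinib above KO mock, and *Tgfbi* probe 1 in KO mock above WT mock with erlotinib. The share of such pairs over all probes was not counted.

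The members did not vary as a block. Over the 62 samples the paired probes of a gene correlated at r = 0.63 for *Ccn1*, 0.84 for *Tgfbi* and 0.66 for *Thbs1*, a description of samples that share runs and a reference. Between genes *Ccn1* probe 1 went with *Thbs1* (r = 0.56 and 0.62 for its probes), and within groups as well (0.56 and 0.66). *Ccn1* probe 2 did not, at 0.14 and 0.18 over samples and −0.02 and 0.08 within groups. *Ccn1* and *Ccn2* gave 0.18 and 0.49 for the 2 *Ccn1* probes, and 0.34 and 0.69 within groups. *Tgfb1* and *Tgfbi* gave 0.31 and 0.16. Among 10946 genes with a value in every sample, those most like *Ccn1* probe 1 were *Tpm4* (r = 0.72) and the immediate early gene *Egr1* (0.68), followed by *Nip7*, *Elk3* and *Pxdc1*. Those most like *Ccn2* were *Igfbp5* (0.75), *Lgals1*, *Cdh11*, *Pmp22* and *Vim*, and those most like *Tgfbi* were *Tenm2* (0.86), *Sostdc1*, *Gpc4*, *Pdgfa* and *Ccl27a*. For *Thbs1* they were *Tent2* (0.72), *Rtn4*, *Osbpl5*, *Pkm* and *Snx2*, and for *Tgfb1* *Phc2* (0.75), *Cnn3*, *Cd200*, *Tnfrsf12a* and *Tinagl1*.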

How the data were processed

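RNA from 62 samples in 13 groups was measured on 63 arrays of 28049 probes, each against one pooled mouse reference RNA. The deposited values are log ratios of 2 dye channels per the labels, taken here to be log2, and the authors' background correction and normalization are not given in the sources used here. Array medians lay between −0.072 and 0.067, and arrays held 24860 to 28047 values. The number of arrays limits the precision, and no depth applies to arrays.

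Each array's ratio was set as sample divided by reference, its sign decided by correlation with the median forward array, against the label for 2 arrays. The 2 arrays of WT mock repeat 1 (r = 0.834) were averaged. After this step the keratinocyte markers averaged above the reference in all samples, and they were not used to set the signs. Probes with values on 60 percent of the arrays of each group compared were fitted with limma 3.58.1 in R 4.3.3, with all 13 groups and a dye term, and called at an adjusted p of 0.05 (Benjamini-Hochberg over all probes tested). Tables and figures used Python 3.11.15, pandas 2.3.3, numpy 2.4.6 and matplotlib 3.10.9, and run as a random block used statmod 1.5.0. Runs were blocks of experiment numbers parted by gaps over 100, and their meaning is not given. All p-values measure the spread between samples, which may be technical where nothing states separate cultures. Same-numbered samples were checked for pairing, and in no comparison did every pair correlate above 0.1 (lowest −0.656, highest 0.686), so the numbers were not taken as pairs.

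The members and lists were chosen with earlier results of these data known. Named genes are all member probes, list genes called in a comparison described (the 3 with the largest change where more of a list were called), and the 5 genes most correlated with each member. The fit was tested on simulated data of 19386 probes in 5 comparisons, and recovered 13% to 22% of changes of log2 1 and 53% (KO minus WT in mock cells) to 82% of changes of log2 2. False calls were 4.35% for KO minus WT in mock cells and 4.85% in ras cells. They were above 5% for erlotinib in WT ras cells (6.06%), KO minus WT in ras cells with AG1478 (6.31%) and ras in WT cells with AG1478 (6.8%). The simulated noise was drawn independently for each sample, with no run effect. In the data, samples of a run had a consensus correlation of 0.242, so these rates do not cover false calls from run.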

Additional observations from a re-analysis of the deposited data

Results flagged for a closer look

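Single samples stood far from the others of their group in 6 of 96 sets of a probe and a group, where chance flags about 1 in 20. *Ccn1* probe 2 was low in WT mock AG1478 replicate 1 (0.894, others 3.254 to 3.705) and in WT ras AG1478 replicate 3 (1.428, others 2.601 to 2.761). *Ccn2* was low in WT ras erlotinib replicate 2 (−0.191, others 0.662 to 0.927), *Tgfbi* probe 2 in WT mock erlotinib replicate 4 (1.044, others 2.987 to 3.565) and *Thbs1* probe 1 in KO ras PD153035 replicate 4 (2.729, others 3.508 to 3.703). *Tgfb1* was high in WT mock PD153035 replicate 5 (0.79, others −0.232 to 0.055).

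Of 24 sets of a probe and an inhibitor, 3 had every treated KO ras sample on one side of its control mean and every treated WT ras sample on the other side. *Ccn2* with PD153035 differed from its control by −0.953 in KO and 0.542 in WT cells, a gap of −1.50. *Tgfbi* probe 1 with erlotinib differed by 0.814 in KO and −0.346 in WT cells, a gap of 1.16. *Tgfbi* probe 2 with AG1478 differed by 0.903 in KO and −0.993 in WT cells, a gap of 1.90. These differences between genotypes were not tested. The share of all probes with such opposite sides was not counted, and the spread of the controls was not used. For *Ccn2* the KO ras controls ran from −1.82 to 1.84, while the KO ras samples with PD153035 ran from −0.81 to 0.01.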

How the results depend on the processing

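Under the alternative settings 401 counts of called member probes stayed within 1.5 times of the reported one and 75 moved. The reported count was 0 in 22 of the 33 comparisons, and counts that stayed at 0 are among the 401. With array weights the count of called member probes moved in 16 comparisons, to 0 to 5, among them KO minus WT in mock cells (5), PD153035 in KO ras cells (5), AG1478 minus PD153035 in KO ras cells (5) and the ras effect in WT cells given erlotinib (5), with 3 for KO minus WT under erlotinib and 2, 1 or 0 in the rest. With quantile normalization 8 counts moved, to 0 to 5, erlotinib minus PD153035 in KO ras cells to 1. With run as a random block 10 moved, to 0 to 2, erlotinib minus PD153035 in KO ras cells to 0, and with run as a fixed block 4 moved, to 1 to 3. Fits on only the groups compared moved 10 counts, to 0 to 3, signs by label 10, to 0 to 2, and probes averaged by gene 6, to 0 or 1. Forward arrays alone moved 3 (0 to 3), probes with a value on every array 2 (1 each), repeat 1 arrays kept apart 1 (3), median centring 1 (1), no dye term 1 (0) and leaving out both disputed arrays 1 (0). How many of all probes each setting called is not set beside these counts. They therefore do not show a change particular to the members. The causes were not tested.

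With a replicate block the counts for KO minus WT in mock cells and for AG1478 minus PD153035 in KO ras cells moved to 0, and no other member count moved. Leaving out each sample in turn gave ranges of 0 to 1 for AG1478 minus PD153035 in KO ras cells, erlotinib and the mean of the inhibitors in WT ras cells, and KO minus WT in ras cells without inhibitor, with erlotinib and with PD153035. The ranges were 0 to 0 for KO minus WT in mock cells, 0 to 2 for ras in KO cells, 0 to 3 for PD153035 in KO ras cells, 2 to 4 for erlotinib minus PD153035 in KO ras cells, 1 to 3 for ras in WT cells with AG1478 and 1 to 4 with erlotinib. Directions turned for *Ccn2* with erlotinib in KO ras cells, at 0.317 in the reported fit, to −0.0761 with quantile normalization, −0.553 with array weights and −0.270 without KO ras replicate 5 (−0.270 to 0.646 over fits without 1 sample). For *Ccn2* and the mean of the inhibitors in KO ras cells, at −0.0533, they turned to 0.272 with run as a random block and to 0.187, 0.277 and 0.234 without KO ras replicates 1, 2 and 3 (−0.644 to 0.277 over fits without 1 sample). *Itga6* in KO minus WT with AG1478 turned to −0.261 with signs by label.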
